A study of Homo sapiens with 6 samples.

Results

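The genes of DNA replication licensing and of the replisome were described in T24 cells (a long-established human line of bladder carcinoma) as 50 genes chosen by name out of 58825 genes in the expression table. Messenger RNA was sequenced in 3 libraries of cells with the hairpin shDLGAP5-1 and in 3 libraries of cells with the control hairpin shNC-1, whose genotype label is WT. All cells were grown in RPMI medium with fetal bovine serum and antibiotics. By its title the study links DLGAP5, a spindle protein of mitosis, to E2F1, a transcription factor whose known targets include many replication genes. The groups come from 1 cell line and 1 hairpin each, and nothing in the labels says whether separate cultures were used. The p-values therefore rest on the spread between these libraries, which may be technical. Levels are FPKM, fragments per kilobase of transcript scaled to library size, so they can be compared between genes. All 50 genes had at least 1 FPKM in at least 3 libraries and were tested.

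Replication is prepared before S phase, when the origin recognition complex, CDC6 and CDT1 load the ring of MCM2 to MCM7 onto DNA, and geminin binds CDT1 to stop reloading. Cyclin E with its kinase and CDC7 with DBF4 start synthesis, when CDC45 and the GINS complex join the MCM ring into a working helicase. Polymerase alpha with primase then lays primers, polymerases delta and epsilon extend them on the PCNA clamp, RPA covers single strands, and claspin, timeless and TIPIN hold helicase and polymerases together.

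The hairpin's target was low where the labels put it. DLGAP5 stood at 5.03, 4.0 and 7.51 FPKM in shDLGAP5-1 replicates 1 to 3, against 33.0, 32.7 and 29.7 FPKM in shNC-1 replicates 1 to 3, so the groups did not overlap (log2 fold change −2.37, standard error 0.19, limma adjusted p = 0.000894). The shDLGAP5-1 columns of the table are headed by the number of a construct and were assigned as the only group left, so this level is the check on them. Estimated depth was 13700000 to 18300000 fragments in the shDLGAP5-1 libraries and 21600000 to 27500000 in the shNC-1 libraries. These depths are approximate, and counts were not recovered. If the depths hold, counting error is larger in the shDLGAP5-1 libraries. Of 15 bladder and urothelial markers, 6 were at 1 FPKM or more in every library, among them KRT7, KRT8, KRT18 and KRT19, and 6 were under 1 FPKM in every library, among them CDH1, GATA3 and the uroplakins UPK1A, UPK1B and UPK2. Of 12 leukocyte markers, CD3E and MS4A1 were listed at 0 in all libraries, and the summed level was 10.7 to 790.4 FPKM over the shDLGAP5-1 libraries and 10.3 to 33.2 FPKM over the shNC-1 libraries. The highest sum was that of shDLGAP5-1 replicate 3, where LYZ stood at 686 FPKM, LAPTM5 at 34.7, SPI1 at 20.7, TYROBP at 11.2, S100A9 at 10.2 and PTPRC at 7.03 FPKM, each above its level in the other libraries. CD68, CSF1R and S100A8 were also highest there, while CD14 was not and was under 1 FPKM in every library. The endothelial marker PECAM1, at 8.45 FPKM, was also highest in shDLGAP5-1 replicate 3. Without that library all 10 of the calls described here were kept and 11 replication genes were called.

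Replication genes moved in both directions. CDT1, MCM6, PRIM1 and RPA3 rose in shDLGAP5-1 cells, and RRM1, GINS3, TIPIN, ORC5, CLSPN and GINS4 fell. The 10 calls make up 20% of the 50 genes, near the 24.8% of all 12714 tested genes that passed (limma on log2(FPKM + 1), Benjamini-Hochberg adjusted p under 0.05). The 4 rises compare with 15.3% of all genes called higher, and the 6 falls with 9.52% of all genes called lower. The median log2 fold change was −0.10 over the replication genes and 0.03 over all tested genes. Between groups, 25 replication genes (50%) did not overlap, 7 of them higher and 18 lower in shDLGAP5-1, where 43.9% of all tested genes did not overlap. Of all tested genes, 25.6% were higher without overlap and 18.3% lower without overlap. In bulk samples, fewer cells in S phase and less of a transcript per cell cannot be told apart. The split of the calls depended on the scaling: with columns brought to 1 common total (same-total scaling) there were 1 rise and 8 falls, and with the trend of each library on transcript length removed 2 rises and 12 falls. Of all genes, 21% were called under same-total scaling and 29.8% with the length trend removed. The split over all genes moved too: 61.6% of all calls were higher as reported, 48.1% under same-total scaling and 50.1% with the length trend removed.

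The number of calls also depended on single libraries, and RRM1 and CDT1 were the 2 genes whose calls held in all 6 fits that left 1 library out. Leaving out replicates 1, 2 and 3 of shDLGAP5-1 in turn gave 8, 5 and 11 calls, with 21.5%, 16.2% and 24.7% of all genes called. Leaving out replicates 1, 2 and 3 of shNC-1 in turn gave 3, 2 and 5 calls, with 11.9%, 10.5% and 15.2% of all genes called. An exact two-sided permutation test of 3 against 3 libraries cannot go below p = 0.1, which it gave for each of the 10 called genes.

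**Figure D1:**
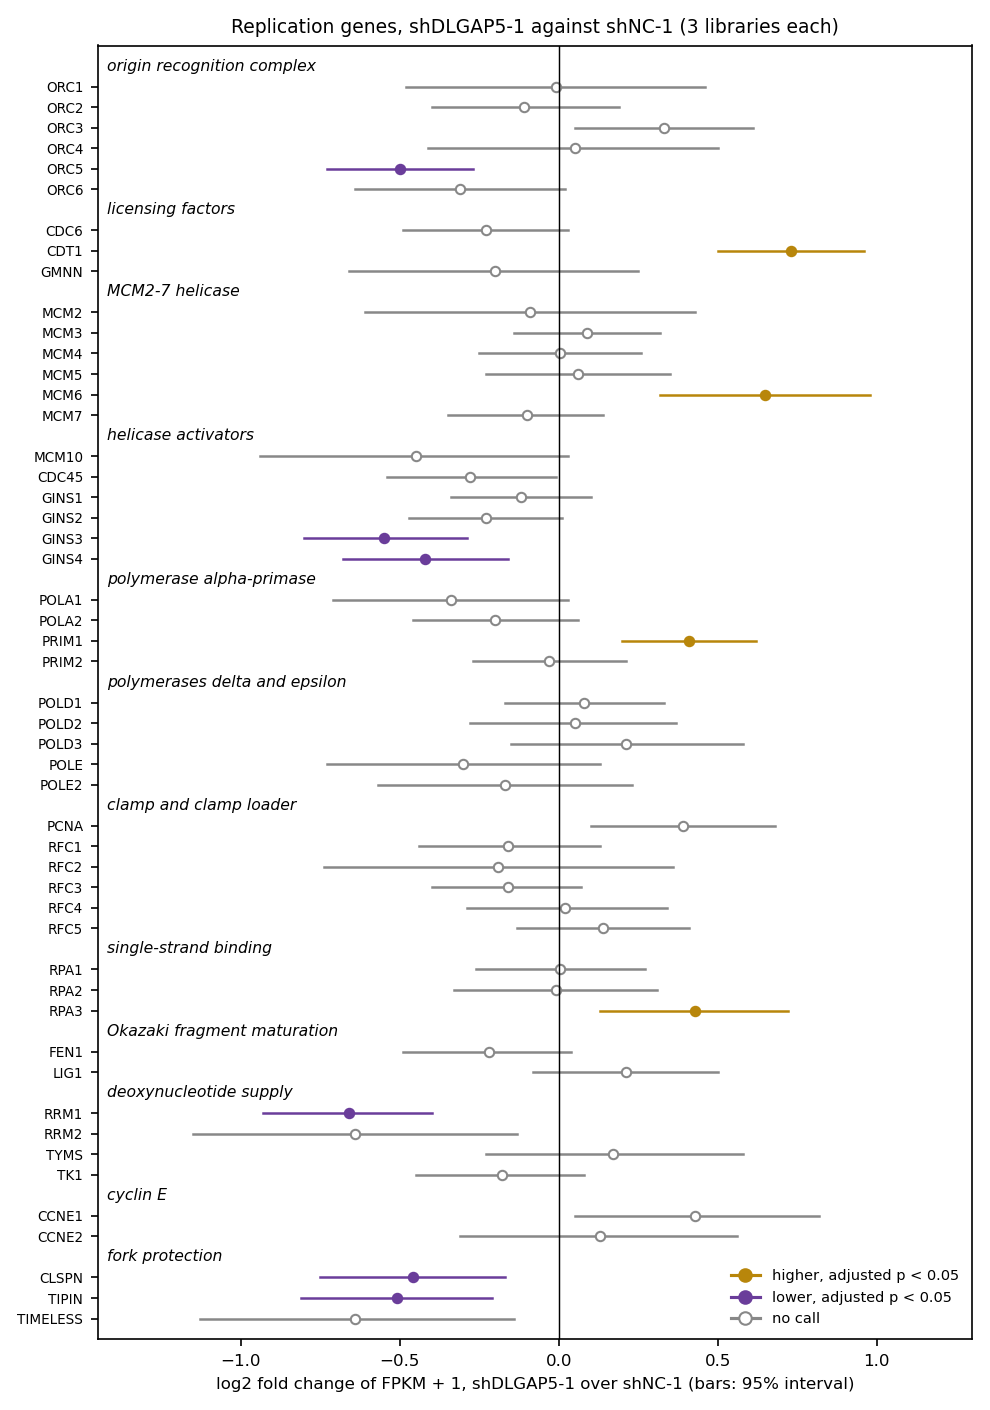
Log2 fold change of FPKM + 1, shDLGAP5-1 over shNC-1, for the 50 replication genes in 12 role groups, with bars for the 95% interval from limma and filled points for genes that passed (3 libraries each). The 4 rises lie between 0.41 and 0.73, the 6 falls between −0.66 and −0.42, and the open points between −0.64 and 0.43.

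Promoters were searched for the letters of the E2F site, both among genes that moved and among those that did not. The letters were TTTCCCGC, TTTGGCGC, TTTCGCGC and TTTGCCGC on both strands, in windows of 250 bases before to 50 bases after each RefSeq start. Of 43 replication genes with a promoter there, 21 (48.8%) held at least 1 match in at least 1 window, against 3.99% of 27305 symbols. Counted by window, 21 of 55 windows of replication genes (38.2%) held a match, against 3.3% of all 35116 windows. The symbols and windows compared were not limited to genes expressed in these cells, as the replication genes were. Replication genes also include many known targets of E2F1, so these shares are of unlike sets and are descriptions only. Among the 21 genes with a match there were 2 rises and 3 falls around a median difference of −0.16 (log2), and among the 22 without one there were 1 rise and 2 falls around −0.13. The called genes RPA3 and GINS4 had no promoter there and are missing from these counts. E2F1 itself stood at 32.6, 36.0 and 32.8 FPKM in the shDLGAP5-1 libraries, against 31.8, 29.9 and 34.7 FPKM in the shNC-1 libraries, which overlap (log2 fold change 0.07, 95% interval of the ratio 0.887 to 1.24, limma adjusted p = 0.647). A match describes the letters only and is not a measured binding site. The E2F1 values are of its transcript, and E2F1 protein and activity were not measured here.

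The promoters of 2 genes that rose and 2 that fell are printed as examples, picked after their values were seen. Among them, matches stood beside changes in both directions, and RRM1, the fall with the smallest adjusted p, had none. Examples picked in this way cannot show how matches relate to direction. The sequences are from RefSeq (GRCh38.p14), written 5′ to 3′ on the gene's strand, with matches in capitals.
CDT1, chr16:88803539-88803838, plus strand: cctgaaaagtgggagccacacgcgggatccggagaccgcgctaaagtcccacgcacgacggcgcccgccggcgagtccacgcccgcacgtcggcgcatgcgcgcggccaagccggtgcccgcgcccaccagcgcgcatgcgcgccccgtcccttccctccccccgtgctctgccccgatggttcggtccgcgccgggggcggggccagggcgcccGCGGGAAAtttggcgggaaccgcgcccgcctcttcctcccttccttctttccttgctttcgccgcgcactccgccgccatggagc
MCM6, chr2:135876394-135876693, minus strand: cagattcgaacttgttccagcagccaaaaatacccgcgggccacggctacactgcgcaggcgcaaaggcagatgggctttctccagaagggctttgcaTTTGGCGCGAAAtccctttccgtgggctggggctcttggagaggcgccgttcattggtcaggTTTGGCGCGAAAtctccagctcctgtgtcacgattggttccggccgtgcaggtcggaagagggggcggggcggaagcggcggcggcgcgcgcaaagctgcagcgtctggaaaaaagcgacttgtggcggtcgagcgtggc
CLSPN, chr1:35769929-35770228, minus strand: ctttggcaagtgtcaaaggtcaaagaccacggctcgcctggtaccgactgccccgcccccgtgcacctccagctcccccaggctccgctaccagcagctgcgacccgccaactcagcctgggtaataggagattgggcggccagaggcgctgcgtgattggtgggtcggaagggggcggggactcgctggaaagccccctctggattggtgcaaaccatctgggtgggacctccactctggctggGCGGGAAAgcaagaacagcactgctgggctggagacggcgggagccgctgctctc
RRM1, chr11:4094435-4094734, plus strand: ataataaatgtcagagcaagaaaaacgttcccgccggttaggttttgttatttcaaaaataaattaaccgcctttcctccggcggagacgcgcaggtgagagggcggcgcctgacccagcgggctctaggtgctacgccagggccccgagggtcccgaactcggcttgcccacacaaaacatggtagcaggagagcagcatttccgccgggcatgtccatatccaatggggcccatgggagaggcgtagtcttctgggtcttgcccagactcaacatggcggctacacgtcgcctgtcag
The CDT1 window has 1 match, TTTCCCGC on the opposite strand, beginning 35 bases before the start, and the CLSPN window has the same letters, also on the opposite strand, beginning 5 bases before the start. The MCM6 window has 4 matches in 2 identical runs, in each of which TTTGGCGC and an opposite-strand TTTCGCGC overlap, beginning 152 and 90 bases before the start. The RRM1 window has none of these letters.

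Of the origin recognition complex, which marks origins through the cell cycle, ORC5 fell and the other subunits did not pass. ORC5 had 11.2, 10.5 and 11.2 FPKM in shDLGAP5-1 libraries, against 15.4, 15.7 and 16.8 FPKM in shNC-1 libraries. The groups did not overlap, and the level was 31.2% lower (log2 fold change −0.50, standard error 0.10, limma adjusted p = 0.0128; adjusted p = 0.0613 without shNC-1 replicate 2). ORC3 had 15.1, 13.2 and 15.5 FPKM in shDLGAP5-1 libraries and 10.6, 12.5 and 11.0 FPKM in shNC-1 libraries, without overlap but also without a call (log2 fold change 0.33, adjusted p = 0.0816). ORC1, the subunit known to cycle, spread widely in shDLGAP5-1 cells, at 6.05, 7.62 and 11.2 FPKM, against 8.44, 8.03 and 7.80 FPKM in shNC-1 cells. ORC2, ORC4 and ORC6 had log2 fold changes of −0.11, 0.05 and −0.31, and that of ORC4 turned to −0.05 under same-total scaling.

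CDT1, which brings the MCM ring to origins, had the largest rise of the 50 genes. It stood at 58.6, 63.8 and 56.5 FPKM in shDLGAP5-1 libraries, against 34.1, 35.7 and 36.7 FPKM in shNC-1 libraries. Every shDLGAP5-1 library lay above every shNC-1 library, with means of 59.6 ± 3.73 and 35.5 ± 1.34 FPKM (SD, n = 3 each), a level 68.0% higher (log2 fold change 0.73, standard error 0.10, limma adjusted p = 0.00335). The call held in all 6 leave-one-out fits, with fold changes of 0.68 to 0.77, and in the 10 other settings.

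GMNN, which encodes geminin, the inhibitor of CDT1, did not pass. Its levels were 18.1, 10.7 and 11.6 FPKM in shDLGAP5-1 libraries and 14.2, 16.4 and 15.2 FPKM in shNC-1 libraries. Replicates 2 and 3 of shDLGAP5-1 lay under all shNC-1 libraries and replicate 1 above them (log2 fold change −0.20, adjusted p = 0.477). Without shDLGAP5-1 replicate 1 the log2 fold change was −0.42 and passed. CDC6, the ATPase that works with CDT1, had 9.33, 9.89 and 11.2 FPKM in shDLGAP5-1 libraries and 12.1, 12.3 and 11.7 FPKM in shNC-1 libraries, lower in each but without a call (log2 fold change −0.23, adjusted p = 0.177).

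The transcript level of CDT1 relative to that of its inhibitor was higher in each shDLGAP5-1 library, on a measure that library scaling cannot move. CDT1 and geminin protein were not measured here. The log2 ratio of CDT1 to GMNN was 1.70, 2.58 and 2.29 in shDLGAP5-1 libraries, against 1.27, 1.12 and 1.28 in shNC-1 libraries, a difference of 0.97 or 1.96-fold. The exact two-sided permutation p was 0.1, the smallest possible, and 0.25 adjusted over the 5 ratios computed. GMNN has a longest transcript of 1262 bases and CDT1 of 3240 bases, so a length trend within a library can still enter the ratio.

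Among the subunits of the MCM2-7 ring, which unwinds DNA, MCM6 alone was called, and it was the lowest of them in every library. MCM6 had 23.2, 27.8 and 33.3 FPKM in shDLGAP5-1 libraries, against 17.7, 17.3 and 17.0 FPKM in shNC-1 libraries. The lowest shDLGAP5-1 library stood above the highest shNC-1 library, and the mean was 62.2% higher (log2 fold change 0.65, standard error 0.14, limma adjusted p = 0.0171). Of the summed level of the 6 subunits, MCM6 made up 8.61%, 8.68% and 9.48% in shDLGAP5-1 libraries and 5.68%, 5.61% and 5.68% in shNC-1 libraries, a share computed after its values were seen. The call was lost without shDLGAP5-1 replicate 2 or any 1 of the shNC-1 libraries and under same-total scaling, with a leave-one-out adjusted p of up to 0.0645 and fold changes of 0.53 to 0.78.

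The other subunits of the ring overlapped between groups. MCM2 had 38.2, 49.1 and 68.9 FPKM in shDLGAP5-1 libraries and 59.9, 57.7 and 45.4 FPKM in shNC-1 libraries, the widest spread of the 6 in both groups. MCM3 had 34.1, 37.1 and 38.7 FPKM in shDLGAP5-1 libraries and 33.4, 35.1 and 34.6 FPKM in shNC-1 libraries. MCM4 had 54.9, 64.2 and 66.4 FPKM in shDLGAP5-1 libraries and 62.6, 61.9 and 59.8 FPKM in shNC-1 libraries. In all 3 genes, and also in MCM5, MCM6 and MCM7, replicate 1 of shDLGAP5-1 was the lowest of its group. MCM5 had 41.9, 52.7 and 52.9 FPKM in shDLGAP5-1 libraries and 49.0, 44.2 and 47.4 FPKM in shNC-1 libraries. MCM7, the most abundant subunit, had 77.4, 89.3 and 90.9 FPKM in shDLGAP5-1 libraries and 89.1, 92.4 and 94.6 FPKM in shNC-1 libraries. The log2 fold changes of these 5 genes ran from −0.10 to 0.09, and their 95% intervals allow changes down to −0.61 for MCM2 and up to 0.43 for the same gene. Those of MCM3, MCM4 and MCM5 turned negative, to −0.02, −0.11 and −0.05, under same-total scaling.

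**Figure D2:**
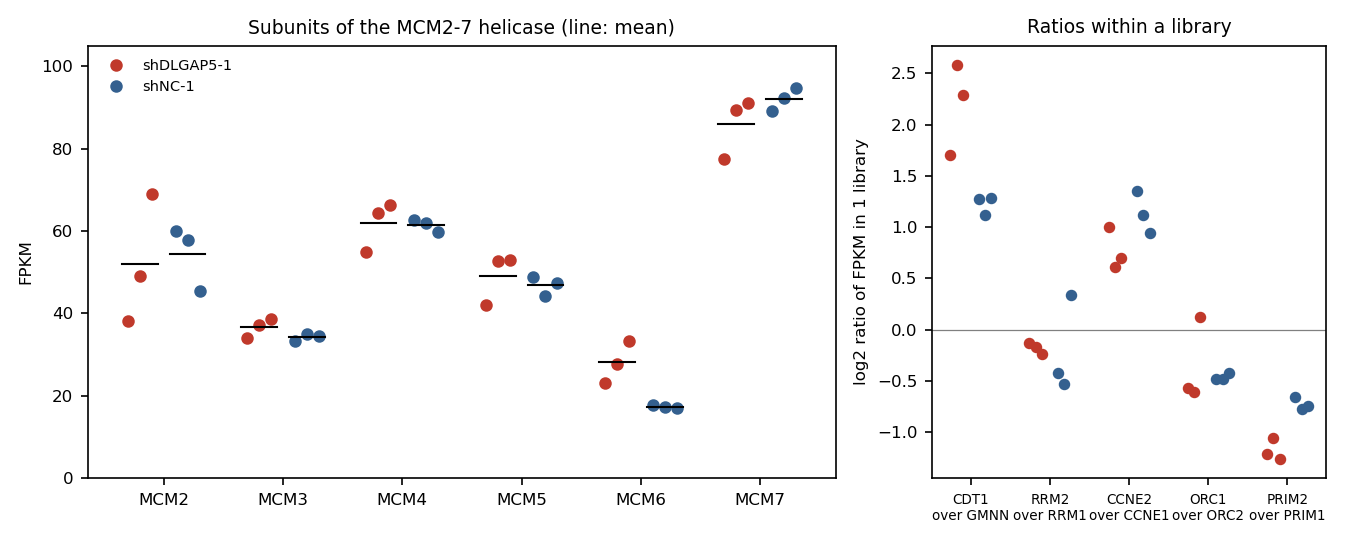
Left, FPKM of each MCM2-7 subunit by library, with shDLGAP5-1 left of shNC-1, points for replicates 1 to 3 and a line for the mean. Right, the log2 ratio of pairs of replication genes in each library. MCM6 and the ratio of CDT1 to GMNN are the columns where every shDLGAP5-1 library lies above every shNC-1 library, and for PRIM2 over PRIM1 each lies below.

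The 6 genes that turn the loaded ring into a helicase each had their 3 shDLGAP5-1 values under all shNC-1 values. So did 18.3% of all tested genes. Of the 6, 2 passed, where 9.52% of all tested genes were called lower. GINS3, a subunit of the GINS complex, had 5.56, 6.09 and 6.52 FPKM in shDLGAP5-1 libraries, against 9.44, 9.13 and 9.28 FPKM in shNC-1 libraries. Its level was 34.8% lower (log2 fold change −0.55, standard error 0.11, limma adjusted p = 0.0131). GINS4, of the same complex, had 7.36, 8.56 and 8.34 FPKM in shDLGAP5-1 libraries, against 10.6, 11.8 and 11.1 FPKM in shNC-1 libraries, 27.5% lower (log2 fold change −0.42, adjusted p = 0.0330).
The other 4 did not pass, with GINS1 at 8.34% and GINS2 at 15.8% under the mean of shNC-1. CDC45, which bridges ring and GINS, had 24.2, 21.5 and 21.6 FPKM in shDLGAP5-1 libraries and 26.6, 25.3 and 30.5 FPKM in shNC-1 libraries (log2 fold change −0.28, adjusted p = 0.115). MCM10, needed for helicase activation, had 2.76, 4.79 and 5.51 FPKM in shDLGAP5-1 libraries and 6.37, 5.99 and 6.08 FPKM in shNC-1 libraries. Its estimate was larger than that of GINS4, with a wider error (log2 fold change −0.45, standard error 0.21, adjusted p = 0.153). The GINS3 call was lost without shNC-1 replicate 1 or 2 (adjusted p up to 0.0599), and that of GINS4 held only without shDLGAP5-1 replicate 3 among the leave-one-out fits (adjusted p up to 0.138).

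In the primase complex the catalytic subunit rose and the other 3 genes did not pass. PRIM1, which makes the RNA primer, had 31.3, 30.5 and 31.2 FPKM in shDLGAP5-1 libraries, against 23.0, 22.9 and 23.6 FPKM in shNC-1 libraries, with almost no spread within a group (33.8% higher; log2 fold change 0.41, standard error 0.09, limma adjusted p = 0.0183). PRIM2, its regulatory partner, had 13.5, 14.6 and 13.0 FPKM in shDLGAP5-1 libraries and 14.6, 13.3 and 14.0 FPKM in shNC-1 libraries, which overlap. The log2 ratio of PRIM2 to PRIM1 was −1.21, −1.06 and −1.26 in shDLGAP5-1 libraries, against −0.66, −0.78 and −0.75 in shNC-1 libraries (difference −0.45, exact permutation p = 0.1, adjusted p = 0.25 over the 5 ratios). POLA1, the polymerase subunit, had 7.31, 10.2 and 10.8 FPKM in shDLGAP5-1 libraries and 13.0, 12.0 and 11.2 FPKM in shNC-1 libraries (log2 fold change −0.34, adjusted p = 0.161), and POLA2 differed by −0.20. PRIM1 overlaps NACA on the same strand in the annotation, so reads can be shared. Its call was lost without shNC-1 replicate 1 or 2 (adjusted p up to 0.0903), under same-total scaling and with the length trend removed (log2 fold change 0.25).

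For polymerases delta and epsilon, which copy the 2 strands, 0 of 5 genes passed by limma and 0 had an unadjusted p under 0.05. In all 5 the groups overlapped. Of all tested genes, 24.8% passed and 43.9% did not overlap, and 5 genes are too few to read against these shares. POLD1, the catalytic subunit of delta, had 39.8, 36.5 and 41.1 FPKM in shDLGAP5-1 libraries and 35.6, 34.8 and 40.7 FPKM in shNC-1 libraries. POLE, the catalytic subunit of epsilon, had 10.7, 14.4 and 17.4 FPKM in shDLGAP5-1 libraries and 18.6, 18.6 and 15.1 FPKM in shNC-1 libraries (log2 fold change −0.30, 95% interval −0.73 to 0.13). POLD2, POLD3 and POLE2 had log2 fold changes of 0.05, 0.21 and −0.17.

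PCNA, the sliding clamp, was the most abundant of the 50 transcripts. It had 189.7, 148.7 and 159.7 FPKM in shDLGAP5-1 libraries, against 120.9, 122.1 and 135.1 FPKM in shNC-1 libraries. The groups did not overlap, but the difference did not pass (31.7% higher; log2 fold change 0.39, 95% interval 0.10 to 0.68, limma adjusted p = 0.0589), except with quantile normalization. The 5 genes of the clamp loader RFC had log2 fold changes of −0.19 to 0.14, with 0 calls by limma and 0 at an unadjusted p under 0.05. Of all tested genes, 24.8% were called, and 5 genes are too few to read against that share. RFC2 had 22.2, 21.1 and 22.5 FPKM in shDLGAP5-1 libraries and 20.6, 20.1 and 38.0 FPKM in shNC-1 libraries, so its estimate of −0.19 turned to 0.10 without shNC-1 replicate 3.

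RPA3, the small subunit of the single-strand binding protein, rose while RPA1 and RPA2 overlapped between groups. RPA3 had 31.5, 25.7 and 25.0 FPKM in shDLGAP5-1 libraries, against 18.9, 19.5 and 21.8 FPKM in shNC-1 libraries, 36.4% higher (log2 fold change 0.43, standard error 0.13, limma adjusted p = 0.0463). That call, the closest of the 10 to the threshold, held only without shDLGAP5-1 replicate 3 among the leave-one-out fits (adjusted p up to 0.15), and it was lost with same-total or median-ratio scaling and with the length trend removed. RPA3 also overlaps UMAD1 on the other strand, and whether strand was used in counting is not given. RPA1 and RPA2 had log2 fold changes of 0.004 and −0.01, and that of RPA1 turned to −0.10 under same-total scaling. Of the genes that join Okazaki fragments, FEN1, the flap nuclease, had 73.2, 81.4 and 71.2 FPKM in shDLGAP5-1 libraries and 83.0, 84.0 and 97.7 FPKM in shNC-1 libraries (log2 fold change −0.22, adjusted p = 0.185), and LIG1, the ligase, had a log2 fold change of 0.21.

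RRM1, the large subunit of ribonucleotide reductase, had the largest fall among the genes that passed. It had 43.8, 53.5 and 53.0 FPKM in shDLGAP5-1 libraries, against 78.2, 82.2 and 78.6 FPKM in shNC-1 libraries. Means were 50.1 ± 5.44 and 79.7 ± 2.21 FPKM (SD, n = 3 each), 37.1% lower (log2 fold change −0.66, standard error 0.11, limma adjusted p = 0.00748), and the call held in all 6 leave-one-out fits and in the 10 other settings. RRM2, the small subunit, had 40.1, 47.4 and 44.8 FPKM in shDLGAP5-1 libraries, against 58.5, 57.1 and 99.2 FPKM in shNC-1 libraries. The groups did not overlap, but shNC-1 replicate 3 stood far above the other control libraries and the difference did not pass (log2 fold change −0.64, adjusted p = 0.0695; −0.38 without that library). The log2 ratio of RRM2 to RRM1 was −0.13, −0.17 and −0.24 in shDLGAP5-1 libraries and −0.42, −0.53 and 0.34 in shNC-1 libraries (exact permutation p = 1). TK1, thymidine kinase, differed by −0.18 on the log2 scale and TYMS, thymidylate synthase, by 0.17. TYMS overlaps ENOSF1 and TYMSOS on the other strand.

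**Figure D3:**
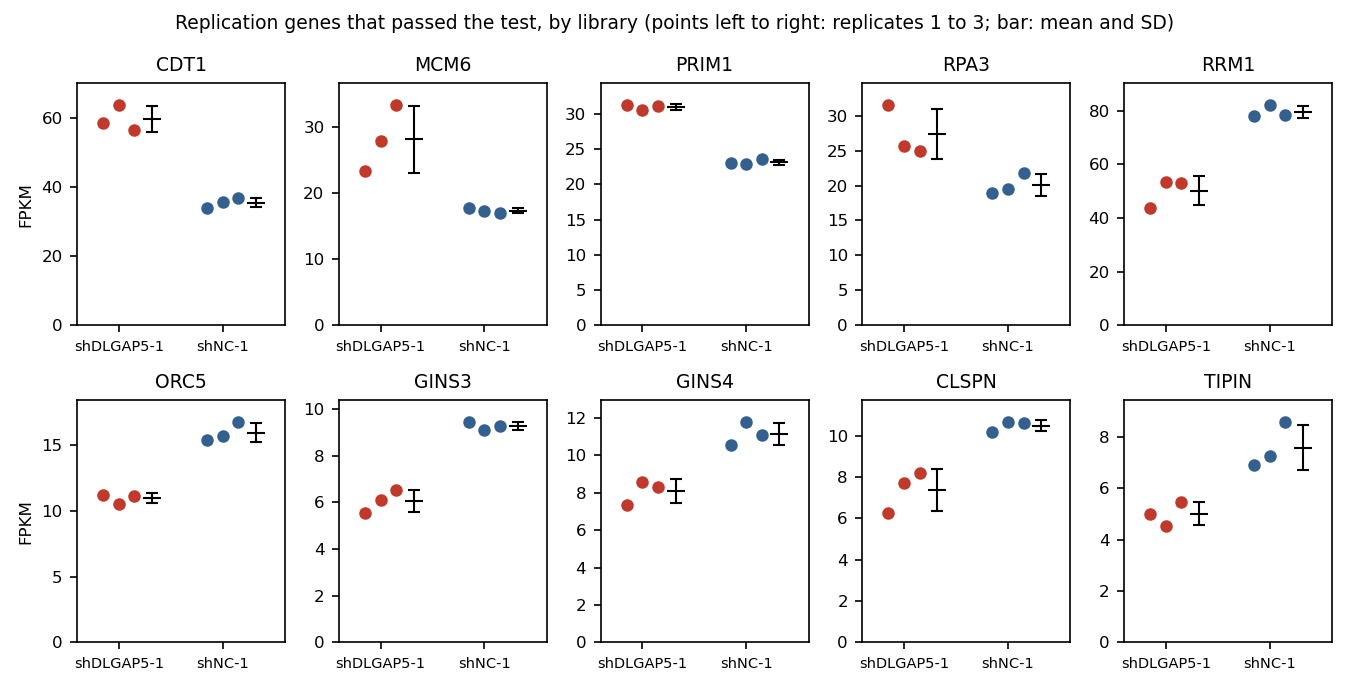
FPKM by library of the 10 replication genes that passed the test, with shDLGAP5-1 left of shNC-1 in each panel, points for replicates 1 to 3 and a bar for the mean and SD. The axes start at 0, and in each panel the groups do not overlap; RPA3, the call closest to the threshold, has 25.0 FPKM in its lowest shDLGAP5-1 library and 21.8 FPKM in its highest shNC-1 library.

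Neither cyclin E gene passed. CCNE1, which starts S phase with its kinase, had 6.10, 5.71 and 8.79 FPKM in shDLGAP5-1 libraries, against 4.53, 4.91 and 4.81 FPKM in shNC-1 libraries, without overlap (44.6% higher; log2 fold change 0.43, 95% interval 0.05 to 0.82, limma adjusted p = 0.0961). CCNE2 had 12.2, 8.68 and 14.3 FPKM in shDLGAP5-1 libraries and 11.6, 10.6 and 9.23 FPKM in shNC-1 libraries, which overlap (log2 fold change 0.13, adjusted p = 0.646). The log2 ratio of CCNE2 to CCNE1 was 1.00, 0.61 and 0.70 in shDLGAP5-1 libraries and 1.35, 1.12 and 0.94 in shNC-1 libraries (exact permutation p = 0.2).

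The 3 fork protection genes were each lower without overlap, as were 18.3% of all tested genes. Of the 3, 2 passed, where 9.52% of all tested genes were called lower. CLSPN, which encodes claspin, a mediator of the replication checkpoint, had 6.25, 7.71 and 8.18 FPKM in shDLGAP5-1 libraries, against 10.2, 10.6 and 10.6 FPKM in shNC-1 libraries (29.5% lower; log2 fold change −0.46, standard error 0.13, limma adjusted p = 0.0362). TIPIN, the partner of timeless, had 5.02, 4.55 and 5.46 FPKM in shDLGAP5-1 libraries, against 6.92, 7.28 and 8.58 FPKM in shNC-1 libraries (34% lower; log2 fold change −0.51, adjusted p = 0.0274). TIMELESS had 8.56, 11.1 and 15.3 FPKM in shDLGAP5-1 libraries, against 17.1, 21.7 and 16.2 FPKM in shNC-1 libraries. Its estimate was as low as any of the 10 calls but RRM1, with a spread too wide to pass (log2 fold change −0.64, standard error 0.21, adjusted p = 0.0655), and it passed at −0.84 without shDLGAP5-1 replicate 3. The CLSPN call held only without shDLGAP5-1 replicate 3 among the leave-one-out fits (adjusted p up to 0.126), and the TIPIN call only without shDLGAP5-1 replicate 1 or 3 (adjusted p up to 0.0851). TIPIN was also the thinnest in reads, at about 110 fragments in the lowest library.

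Other genes of the pathway, 43 listed by function, included 3 rises and 8 falls. That is 25.6% called, near the 24.8% of all tested genes, of which 15.3% were called higher and 9.52% lower. The median of the list was −0.11 on the log2 scale, against 0.03 over all tested genes. The falls included both known partners of the CDC7 kinase: DBF4 had 2.46, 2.99 and 3.54 FPKM in shDLGAP5-1 libraries, against 4.35, 4.61 and 4.53 FPKM in shNC-1 libraries, and DBF4B fell by 0.57 on the log2 scale. CDC7 itself differed by −0.0002 on that scale. CDC25A, the phosphatase that activates the cyclin E kinase, had 4.15, 5.54 and 7.18 FPKM in shDLGAP5-1 libraries, against 10.0, 10.4 and 9.12 FPKM in shNC-1 libraries (log2 fold change −0.74, limma adjusted p = 0.0252). SKP2, a ubiquitin ligase subunit that targets CDT1 and p27, fell by 0.61 on the log2 scale, TOP1, the topoisomerase that relieves supercoils, by 0.53, MCM8, a relative of the ring subunits, by 0.49, POLE3, an accessory subunit of polymerase epsilon, by 0.48 and CHTF8, part of an alternative clamp loader, by 0.45.
The rises were POLD4, the small subunit of polymerase delta (log2 fold change 0.71), DUT, the dUTPase that keeps uracil out of DNA (0.67), and ASF1B, a histone chaperone (0.40). Each of these 11 calls was lost in at least 1 leave-one-out fit. Leaving out replicates 1, 2 and 3 of shDLGAP5-1 in turn gave 5, 3 and 13 calls in this list. Of all genes, 21.5%, 16.2% and 24.7% were called in those fits. For replicates 1, 2 and 3 of shNC-1 limma gave 0, 0 and 3 calls, with 16, 12 and 15 genes at an unadjusted p under 0.05. Of all genes, 11.9%, 10.5% and 15.2% were called without those libraries.

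Transcripts of other cell cycle steps are set beside these as counts. Of 20 mitotic genes, 16 fell and 4 did not pass, where 9.52% of all tested genes were called lower. The fall of this list was known from earlier results of these data, so its count and median are descriptions only. Its median was −0.92 on the log2 scale, against −0.10 for the replication genes and 0.03 over all tested genes. Of the 4 that did not pass, CDK1 (log2 fold change 0.16) and TOP2A (−0.20) overlapped between groups. BUB1B (−0.45) and TTK (−0.41) were lower without overlap, as were 18.3% of all tested genes. MKI67, the proliferation marker, had 5.47, 11.9 and 17.0 FPKM in shDLGAP5-1 libraries, against 31.1, 31.1 and 21.4 FPKM in shNC-1 libraries. Its means were 11.4 and 27.9 FPKM (limma adjusted p = 0.0365). The MKI67 call held in 2 of the 6 leave-one-out fits and was lost with no filter and with the replicate block. Of 20 tested replication-dependent histone genes 1 rose and 1 fell, around a median of −0.10. That is 10% called, beside 24.8% of all tested genes. Most histone transcripts lack the poly(A) tail that mRNA kits usually select.

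Transcript length moved with the libraries. Over the 50 replication genes, the deviation of a library from its group mean correlated with the log2 length of the longest transcript at r = −0.72 in shDLGAP5-1 replicate 1, 0.44 in replicate 2 and 0.47 in replicate 3. In shNC-1 replicates 1 to 3 r was 0.48, 0.19 and −0.45. These are descriptions over 50 genes of the same libraries. Each library also enters its own group mean, so a fall with length in 1 library pushes the others of its group towards a rise. The values of r within a group are therefore not separate results. Long transcripts were low in shDLGAP5-1 replicate 1, such as POLE with 8011 bases and TIMELESS with 5121, and short ones high, such as GMNN with 1262 and PCNA with 1359. The difference between groups had r = −0.20 with length. With the length trend removed, ORC6, CDC45, GINS2, FEN1, TK1 and TIMELESS also passed as lower, and PRIM1 and RPA3 no longer passed. In that setting 29.8% of all genes were called, against 24.8% as reported.

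**Figure D4:**
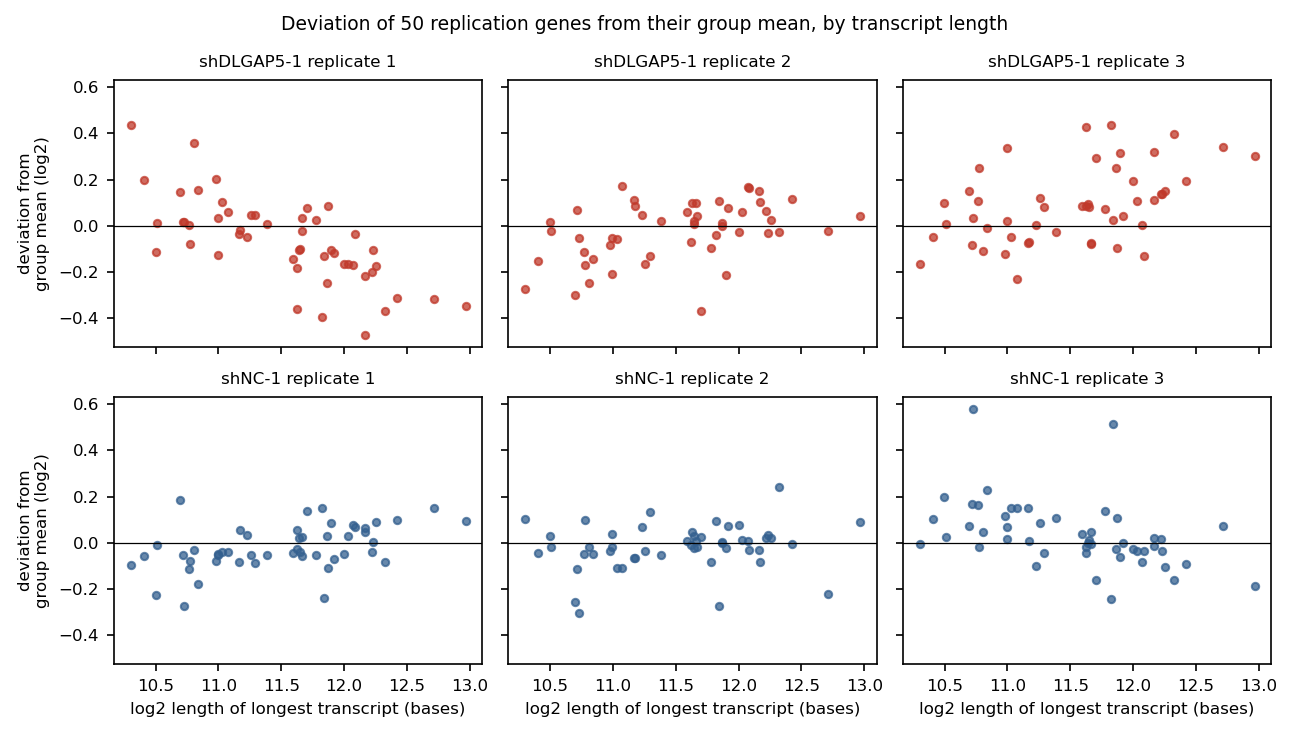
Deviation of each of the 50 replication genes from its group mean, in log2(FPKM + 1), against the log2 length of its longest annotated transcript, with shDLGAP5-1 replicates 1 to 3 above shNC-1 replicates 1 to 3. Points fall with length in shDLGAP5-1 replicate 1 (r = −0.72) and rise with length in replicate 3 (r = 0.47). Each library enters its own group mean, so these trends depend on each other.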

How the data were processed

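Libraries for mRNA sequencing were made from total RNA of T24 cells, per the labels' protocols, 3 per group by title. The authors deposited 1 table of 58825 genes with coordinates and values that are FPKM by their behaviour (not whole, unequal totals, a repeated product of value and length in low single-exon genes); its header names no unit. The sources used here name no aligner, quantifier or annotation and do not say whether strand was used. GENCODE release 29 (GRCh38) holds 58552 of the identifiers, 87.1% of them at identical coordinates. FPKM depend on transcript length and library total. That product, taken as 1 fragment, gave an approximate depth: 16.4% to 25.2% of low values per library were then whole within 0.05, so counts were not recovered. No pair of libraries held identical values: correlations were 0.959 to 0.985 within groups and 0.927 to 0.952 between them.

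The 12714 genes that reached 1 FPKM in 3 or more libraries were fitted with limma 3.58.1 in R 4.3.3 (trended variance, group as the only term) on log2(FPKM + 1), which understates changes of low genes, with Benjamini-Hochberg adjustment over all of them and a threshold of 0.05. The fit was tested on simulated data. Alternatives were another pseudocount (0.1), a filter of 5 FPKM or none, same-total and median-ratio scaling, quantile normalization, removal of the length trend (lowess, span 0.3), a robust variance prior, a replicate block and leaving out each library. Ratios used FPKM with no pseudocount and exact permutation tests (SciPy 1.17.1).

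The members and lists were chosen with earlier results of these data known. Per-library values were to be given for members that passed, CDT1, GMNN, MCM2 to MCM7, CCNE1, CCNE2, PCNA, RRM1 and RRM2; the other members given per library, MKI67 and the 4 promoters printed were picked after their values were seen. Marker lists also covered 3 mesenchymal genes (3 at 1 FPKM or more in every library), 3 endothelial genes (0.117 to 8.45 FPKM summed in shDLGAP5-1 and 0.0247 to 0.388 in shNC-1) and 4 fibroblast genes (1.90 to 2.63 in shDLGAP5-1 and 1.03 to 5.76 in shNC-1). Overlap of at least 1 base with another entry averaging at least 1 FPKM was found for 14 of the 50 genes.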

Additional observations from a re-analysis of the deposited data

How the results depend on the processing

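The 10 calls kept their direction in every alternative; 28 of 60 leave-one-out values and 21 of 100 values in other settings lost the call. Calls among replication genes numbered 6 with no filter (3 lower) and 2 with the replicate block (1 higher, 1 lower). Other replication genes had 3 and, by limma with the block, 0 (14 at an unadjusted p under 0.05). Over all genes there were 2071 calls with no filter, 6.59% of the 31433 genes then tested. With the block there were 1464, 11.5% of 12714 genes. The labels do not say whether the replicate numbers pair the libraries. Deviations of same-numbered libraries correlated at −0.155, 0.021 and −0.157, and those of differently numbered libraries at −0.0654 to 0.193. Deviations from means of so few libraries cannot decide whether the numbers mark a shared culture or day. Rises among replication genes numbered 2 with the length trend removed, with or without the replicate block, and 1 with same-total scaling. Falls numbered 12 with the trend removed. Of all genes, 29.8% were called with the trend removed, 18.2% with that and the block, and 21% with same-total scaling. The replication median was −0.15 with the trend removed (the same with the block), −0.15 with median-ratio scaling, −0.21 with same-total scaling and −0.07 with quantile normalization; less the all-gene median it was −0.14 as reported, −0.15 with same-total scaling, −0.05 with quantile normalization, −0.08 with a filter of 5 FPKM and −0.09 without shDLGAP5-1 replicate 1. Histone calls numbered 1 with a filter of 5 FPKM or none, and 4 with the trend removed, with that and the block, or with quantile normalization.

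Leave-one-out ranges were 1335 to 3141 calls over all genes, 2 to 11 among replication genes (1 to 4 higher, 1 to 7 lower), 0 to 13 among other replication genes, 2 to 4 among histone genes, and −0.13 to −0.03 for the replication median.

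Estimates near 0, none of them called, changed sign. With same-total scaling ORC4 was −0.05, MCM3 −0.02, MCM4 −0.11, MCM5 −0.05, POLD1 −0.03, POLD2 −0.06, RFC4 −0.08 and RPA1 −0.10. With median-ratio scaling ORC4 was −0.0002, MCM4 −0.05, POLD2 −0.01, RFC4 −0.03 and RPA1 −0.05. Both apply 1 factor per library to every gene and lower all estimates together, the all-gene median being 0.03 as reported, −0.06 with same-total and −0.01 with median-ratio scaling. With the length trend removed, with or without the replicate block, MCM4 was −0.002, POLD2 −0.07 and RFC4 −0.14. RPA2 was 0.01 with quantile normalization. Leave-one-out ranges were −0.22 to 0.17 for ORC1, −0.12 to 0.20 for ORC4, −0.31 to 0.11 for MCM2, −0.05 to 0.09 for MCM4, −0.07 to 0.01 for PRIM2, −0.04 to 0.16 for POLD2, −0.34 to 0.10 for RFC2, −0.09 to 0.12 for RFC4, −0.08 to 0.07 for RPA1, −0.14 to 0.07 for RPA2 and −0.02 to 0.31 for CCNE2. The differences in log2 ratio ran from −0.14 to 0.29 for RRM2 over RRM1 and from −0.13 to 0.23 for ORC1 over ORC2. The cause of the sign changes with the length trend removed, with quantile normalization and on leaving out a library was not tested. Estimated fragments were under 1000 in some library for 32 of the 50 genes, which limits their precision.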
